A study of Mus musculus with 2 samples.

Results

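Among 13045 single cells from cultured mouse aortic vascular smooth muscle cells (VSMCs), 130 cells were chosen by their transcript levels of 6 genes, Upk1b, Perp, Sbsn, Ces2g, Tec and Frmd4b. Each cell was scored by the sum, over these genes, of log1p of its unique molecular identifiers (UMIs, one per captured RNA molecule) per 10000, and the top 1% of cells were taken as members. The other 12915 cells served as the comparison. The question was whether the members carried the transcripts of mesothelial or epithelial cells. Epithelial markers gave a mixed answer to the working name of epithelial-like cells. Their summed lists were higher in members, but 9 of 19 simple epithelial genes had no UMI in them. Epcam, the epithelial cell adhesion molecule, and Cdh1, E-cadherin, had 1 UMI each over all 130 cells (0.927 CPM) against 16 and 47 UMIs in the other cells (0.140 and 0.412 CPM), counts too few to tell the groups apart. The mesothelial transcripts Msln and Upk3b were found in a minority of the members, nearly all of them cells with Upk1b UMIs. The set is therefore named here by the genes that chose it.

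The cells came from 4 cultures of commercial primary C57BL/6 mouse aortic VSMCs: young, from mice of 12 weeks; old, from mice of 58 to 78 weeks; young given angiotensin II (AngII) at 100 nM for 48 h; and old transfected with siRNA against the mechanosensitive channel Piezo1 (siPiezo1), for which the study's text does not give 1 dose throughout. Each culture was marked with a TotalSeq-A hashtag, an antibody that carries a DNA barcode, and the 4 were mixed in 1 droplet library. The labels do not pair hashtags with cultures, and the numbers in the study's schematic (young 1, old 2, young with AngII 3, old with siPiezo1 4) are not stated to be tag numbers, so values are given by tag number. With 1 library and 1 culture per group, cells are not replicates. No test was made, and every interval below is a 95% interval that covers counting error only.

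The mesothelium is the flat epithelial sheet that lines the pleural, pericardial and peritoneal cavities, and it covers organs that abut them. It makes mesothelin (Msln), uroplakin 3b (Upk3b), the transcription factor Wt1 and the simple keratins Krt8, Krt18 and Krt19, and unlike most epithelia it holds little Epcam. Uroplakins are best known from the urothelium, where they form rigid plaques on the luminal surface, while suprabasin and involucrin belong to the outer layers of stratified epithelium such as epidermis. Cultured VSMCs are mesenchymal and are marked by contractile genes such as Acta2 and Tagln.

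The 6 score genes lie on 6 chromosomes. In GENCODE vM21 (GRCm38), found by Ensembl identifier, Upk1b spans chr16:38773184-38800328 on the minus strand, Perp chr10:18845020-18857073 on the plus strand, Sbsn chr7:30751471-30756134 on the plus strand, Ces2g chr8:104961718-104969537 on the plus strand, Tec chr5:72755716-72868483 on the minus strand and Frmd4b chr6:97286867-97617541 on the minus strand. All are annotated as protein coding, and UMIs were counted per gene, without exon or transcript.

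Members' scores ran from 9.94 down to 3.10, with a median of 3.90. The plot of score by rank had no step at the threshold. The 5 members nearest to it had scores of 3.16, 3.13, 3.12, 3.11 and 3.10, and the 5 other cells nearest to it had 3.09, 3.09, 3.09, 3.09 and 3.09. No member reached its score on 1 gene alone. UMIs of 2 of the 6 genes were found in 24 members, of 3 in 50, of 4 in 41, of 5 in 13 and of all 6 in 2. Of the other cells, 8517 had none of the 6 genes and 172 (1.33%) had 3 or more. The highest-scoring cell, with 5929 UMIs in all, held 4 Upk1b, 3 Perp, 4 Sbsn, 5 Tec and 3 Frmd4b UMIs and no Ces2g UMI.

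**Figure D1:**
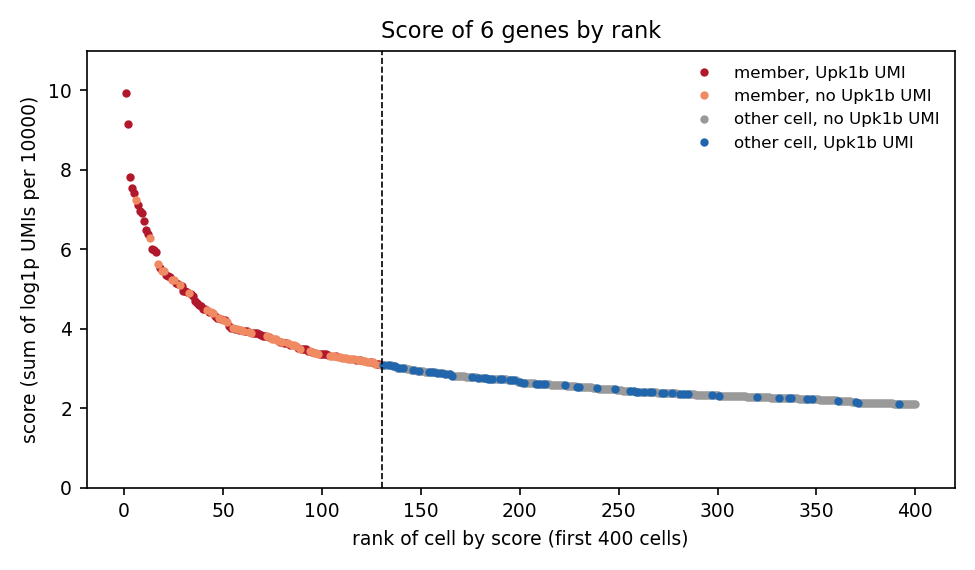
Score of the first 400 cells (y axis, sum of log1p UMIs per 10000 over the 6 genes) against rank (x axis), with a dashed line after the 130 members. Colours show members and other cells with and without a Upk1b UMI, and the curve is smooth across the line, from 3.10 inside to 3.09 outside.

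Levels of the 6 genes are given as a description, because they chose the members. Levels are UMIs of a gene per 1000000 UMIs (CPM), summed over cells. Upk1b, a tetraspanin uroplakin of urothelium and mesothelium, had 278 UMIs in members (258 CPM, interval 228 to 290) and 378 in the other cells (3.32 CPM, 2.99 to 3.67). Its level in the other cells was close to that in barcodes of 1 to 100 UMIs, which hold mostly free RNA (3.34 CPM, 1.34 to 6.88). Perp, a tetraspan membrane protein of desmosomes and a p53 target, was at 179 CPM in members and 12.5 CPM in the other cells. Sbsn, which encodes suprabasin, was at 353 and 26.9 CPM. The carboxylesterase gene Ces2g was at 76.0 and 6.94 CPM, the non-receptor tyrosine kinase gene Tec at 77.9 and 8.04 CPM, and Frmd4b, which encodes a FERM-domain scaffold protein, at 116 and 7.88 CPM. In the barcodes of mostly free RNA, Perp was at 11.5 CPM (7.34 to 17.0), Sbsn at 30.1 CPM (23.1 to 38.5), Ces2g at 9.06 CPM (5.46 to 14.2) and both Tec and Frmd4b at 7.16 CPM (4.01 to 11.8). For all 6 genes the level over all other cells lay within the interval of the free RNA level, which is drawn from the same library. The part of free RNA in the other cells' UMIs was not tested.

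The genes were not equally common among the members. An Sbsn UMI was found in 106 of 130 members, Perp in 80, Upk1b in 72, Frmd4b in 70, Tec in 57 and Ces2g in 54. Among the other cells, the shares were 16.4% for Sbsn, 8.14% for Perp and 2.04% for Upk1b.

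Each gene was also left out of its own score, and its level was read in the top 1% by the other 5. The genes were picked with earlier results of these data known, and 89 to 109 of these 130 cells were members. This reading and the next are therefore descriptions. The left-out gene stayed above the other cells in all 6 cases, with a CPM ratio of 36.7 for Upk1b (30.6 to 43.7), 9.20 for Frmd4b (7.25 to 11.5), 6.48 for Sbsn (5.59 to 7.49), 6.48 for Tec (4.85 to 8.48), 6.46 for Perp (5.20 to 7.94) and 5.44 for Ces2g (3.91 to 7.39). The median of the 6 was 6.48. In a second reading, added after the data were seen, cells were scored on a random part of their UMIs, each kept with a probability of 0.5, and measured in the UMIs left out, where the summed 6 genes were 10.3-fold higher (9.24 to 11.4), against 16.1-fold (15.2 to 17.2) in the members as chosen.

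Genes the score did not use were then read for identity. The mesothelial list held 17 genes, summed to 217 CPM in members and 20.3 CPM in the other cells, a ratio of 10.7 (9.29 to 12.2). Only 4 of the 17 had the 200 UMIs over all cells set as the minimum for the fold count, namely Wt1, Krt19, Krt18 and Aldh1a2, and all 4 were at least 2-fold higher in members, with a median ratio of 4.82. For comparison, of all 12390 genes with that minimum, 5.84% were at least 2-fold higher in members and 7.52% at least 2-fold lower, and the median ratio was 1.03. Of the 10 list genes with 50 UMIs over all cells, 8 were at least 2-fold higher and 1 lower, with a median ratio of 6.70. Of all 15179 genes with 50 UMIs, 10.3% were higher and 12.1% lower.

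Msln, the surface protein mesothelin, had 57 UMIs in 21 members and 77 in the other cells, a ratio of 78.2 (54.6 to 112). Upk3b had 12 UMIs in 6 members and 4 UMIs in the other cells (ratio 317, 96.1 to 1349). Gpm6a, a membrane glycoprotein, had 18 and 8 UMIs (238, 98.4 to 632), and Pkhd1l1, a fibrocystin relative, had 15 and 18 (88.1, 41.3 to 185). These transcripts were rare in the library, and a large part of each lay in the 1% of cells that were members.

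Wt1, the transcription factor of mesothelium and podocytes, was at 38.0 CPM in members and 2.71 CPM in the other cells (14.0, 9.87 to 19.5). Bnc1, which encodes basonuclin 1, a zinc finger protein, had 9 UMIs in members and 52 in the other cells (18.3, 7.92 to 37.5). Of the simple keratins, Krt8 had 5 UMIs in members and 3 in the other cells (176, 34.3 to 1134), Krt18 had 19 and 381 (5.27, 3.14 to 8.35) and Krt19 had 27 and 654 (4.36, 2.85 to 6.41). Nkain4 had 11 and 143 UMIs (8.13, 3.97 to 14.99), and Aldh1a2, which makes retinoic acid, had 10 and 431 (2.45, 1.17 to 4.55).

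The list was not complete in the members. Krt7 and Calb2 (calretinin) had no UMI in them, where a count of 0 allows up to 2.78 CPM (3 UMIs over all members). Lrrn4 and Muc16 had 2 UMIs each and Cldn15 had 1, and all 5 Rspo1 UMIs came from 1 cell. Msln, Upk3b and Wt1 were thus found in members, and Krt7 and Calb2 were not.

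Simple epithelial genes were higher in sum, through part of the list. Of the 19 genes, 9 had no UMI in members and 2 of these none in any cell. The genes without a UMI in members included the tight junction gene Cldn4, the splicing regulator Esrp1 and the epithelial transcription factors Elf3 and Grhl2. Of the 4 with 200 UMIs over all cells, 3 were at least 2-fold higher, Krt18, Krt19 and Spint2 (18 UMIs in members, ratio 4.29, 2.52 to 6.87), and Cldn3 had no UMI in members and 214 in the other cells. Of the 7 with 50 UMIs over all cells, 4 were at least 2-fold higher and 2 lower, against the shares of all genes given above. Cdh3, P-cadherin, had 7 UMIs in members and 29 in the other cells (25.5, 9.43 to 59.5). The list summed to 79.8 CPM in members and 19.1 CPM in the other cells (4.18, 3.33 to 5.18), and Krt19, which it shares with the mesothelial list, was its most abundant gene in members. Without the keratins shared with that list, at least 1 simple epithelial gene was found in 27 of 130 members (20.8%, 14.2 to 28.8) and in 6.57% of the other cells (6.15 to 7.01), and with cells thinned to 5000 UMIs, which left out 26 members and 2407 other cells, in 13.46% and 3.79%. At least 2 were found in 1 member.

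Stratified epithelial genes were higher in members. The list of 16 summed to 163 CPM in members and 38.4 CPM in the other cells (4.25, 3.64 to 4.94), and of the 3 genes past the minimum, Ivl and Sprr1a were at least 2-fold higher and Krt10 was not. Of the 5 genes with 50 UMIs over all cells, 4 were at least 2-fold higher and none lower, with a median ratio of 5.37, against 10.3% higher and 12.1% lower of all 15179 genes with that minimum, and 11 of the 16 had a UMI in members. Ivl, involucrin of the cornified envelope, had 106 UMIs in 37 members (98.3 and 17.9 CPM, ratio 5.49, 4.47 to 6.67). Clusters 3 and 12, described below, held most members, and their other cells had Ivl at 24.1 and 63.3 CPM. Against these cells the ratio of Ivl was 3.36 (2.44 to 4.52) and 3.42 (2.26 to 5.09). Sprr1a, a small proline-rich envelope protein, had 36 UMIs in 8 members (5.78, 4.01 to 8.09), with 12 of them in 1 cell. The basal keratins were almost absent from the library. Members held 3 UMIs of Krt5, all in 1 cell, and 2 of Krt14, and the other cells held none. Trp63, the transcription factor p63 of basal cells, had no UMI in members. Krt10 was at 13.9 and 12.4 CPM. Among the rarer genes, Krt15 had 4 UMIs in members, all in 1 cell, and 1 in the other cells. Dsc3, desmocollin 3, had 3 and 45 (7.05, 1.40 to 21.9) and Lgals7, galectin 7, had 3 and 59 (5.37, 1.08 to 16.5). At least 2 genes of the list were found in 16 of 130 members (12.3%, 7.20 to 19.2) and 2.28% of the other cells (2.03 to 2.56), and in 8.65% and 0.914% of the thinned cells.

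Urothelial genes other than Upk1b were near the limit of counting. Upk2 and Upk3a had no UMI in members and Upk1a had 2, and the list of 8 summed to 14 UMIs in members, a ratio of 3.04 (1.65 to 5.16). Its 1 gene past the minimum, Krt20, had a ratio of 1.43 (0.387 to 3.70). Gata3, a transcription factor of urothelium among other tissues, had 5 UMIs in members (ratio 4.44, 1.42 to 10.7).

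Junction genes were measured because Perp is a desmosomal protein. Of 18 desmosome and tight junction genes, 7 passed the minimum and 4 of these were at least 2-fold higher in members, among them Ppl, periplakin (3.41, 1.69 to 6.18), F11r, junctional adhesion molecule A (2.40, 1.79 to 3.15) and Jup, plakoglobin (2.35, 1.53 to 3.46). Tjp1 had a ratio of 1.04 (0.818 to 1.31). Dsp, desmoplakin, had 2 UMIs and Dsg2 had 3 in members, and Cldn1 and Ocln had none. The desmosomal plakophilin Pkp1 had 11 UMIs, in 3 members.

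The relatives of the score genes gave few UMIs outside the FERM-domain family. Of 5 other uroplakin genes, with a summed ratio of 14.0 (7.74 to 23.6), Upk3b had 12 UMIs in members, Upk1a and Upk3bl 2 each, and Upk2 and Upk3a none. Of 10 other carboxylesterase genes, Ces2e alone had UMIs in members, 43 of them (39.9 and 2.38 CPM, ratio 16.8, 11.9 to 23.2). Ces2e and Ces2g lie within the same cluster of related genes on chromosome 8 and could share reads, so their split is uncertain. Of 4 other Tec family kinases, with a summed ratio of 2.94 (1.51 to 5.19), Btk had 9 UMIs, all in 1 cell, Txk had 3, and Bmx had none. The 5 other FERM-domain genes were together at 305 CPM in members and 363 CPM in the other cells (0.840, 0.751 to 0.936).

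Perp is one of the targets of p53, and the 18 other p53 targets on the list summed to 3870 CPM in members and 2806 CPM in the other cells (1.38, 1.34 to 1.42). All 18 passed the minimum, 3 of them were at least 2-fold higher and the median ratio was 1.36. The 3 were Pmaip1, the apoptosis gene Noxa (2.65, 2.08 to 3.33), Trp53inp1 (2.14, 1.85 to 2.46) and Ccng1, cyclin G1 (2.04, 1.89 to 2.20). Cdkn1a, the cell cycle inhibitor p21, had a ratio of 1.32 (1.24 to 1.41) and Bax 0.977 (0.896 to 1.06).

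VSMC and fibroblast transcripts were present in members, with median ratios under 1 over all cells. The 12 VSMC contractile genes summed to 2884 CPM in members and 2972 CPM in the other cells (0.970, 0.936 to 1.01), and of 11 that passed the minimum 1 was at least 2-fold higher and 3 at least 2-fold lower, with a median ratio of 0.778. Most of the sum was Cald1, caldesmon 1 (1.12, 1.07 to 1.17). Within tag 3, one of the hashtags described below, the summed ratio was 0.777 (0.737 to 0.818), within tag 1 it was 0.916 (0.836 to 1.002), and within tag 2, on 4 members, it was above 1 (1.24, 1.09 to 1.41). Acta2, smooth muscle actin, was at 275 and 340 CPM (0.810, 0.720 to 0.908) and Tagln, transgelin, at 474 and 609 CPM (0.778, 0.712 to 0.849). Cnn1, calponin 1 (0.471, 0.215 to 0.895), and Lmod1, leiomodin 1 (0.373, 0.137 to 0.814), were lower, and Actg2 had no UMI in members. Synpo2 was the higher gene (3.14, 1.42 to 6.04). Among fibroblast genes, 2 of 11 were at least 2-fold lower, Dpep1 (0.333, 0.134 to 0.688) and Dpt (0.470, 0.172 to 1.03), and the median ratio was 0.679. Col1a2 (0.741, 0.677 to 0.809), Col3a1 (0.679, 0.555 to 0.822) and Pdgfra (0.540, 0.361 to 0.776) were below 1, while Dcn, decorin, was at 678 and 536 CPM (1.27).

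Defining markers of other cell types that an aortic culture could hold were at or near 0. Ptprc (CD45), Adgre1, C1qa and C1qb had no UMI in members, and the macrophage and myeloid list summed to 31 UMIs, its most abundant gene over all cells being Cd14. Of its 3 genes past the minimum, Csf1r (13 UMIs in members, 3.07, 1.62 to 5.31) and Cd68 (6 UMIs, 2.12, 0.772 to 4.67) were at least 2-fold higher. Cdh5 and Vwf had no UMI in members, and Cldn5 and Tie1 had none in any cell. The endothelial sum of 86 UMIs (ratio 1.66, 1.33 to 2.06) was made mostly of Flt1, with 70 (1.99, 1.55 to 2.52). Of 4 endothelial genes past the minimum, Kdr was at least 2-fold higher on 7 UMIs (2.79, 1.11 to 5.83) and Egfl7 lower on 2 (0.193, 0.0233 to 0.698). The lymphocyte and mast cell list and the Schwann and neural list had 2 UMIs each. The adipocyte sum was that of Fabp4 (1.09, 0.954 to 1.23), with Plin1, Cidec and Lep at 0.

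Genes of dividing cells were lower. All 8 had ratios under 1 and 6 of 8 were at least 2-fold lower, with a summed ratio of 0.417 (0.377 to 0.461). Top2a, the topoisomerase of mitotic chromosomes, was at 63.1 CPM in members and 166 CPM in the other cells (0.379, 0.294 to 0.481), and Birc5, survivin, at 30.6 and 106 CPM (0.289, 0.199 to 0.407). The summed ratio was 0.506 within tag 3 (0.430 to 0.591), 0.661 within tag 1 (0.536 to 0.806) and 0.0683 within tag 2 (0.0141 to 0.200), the last on 3 UMIs in 4 members. Within cluster 3, one of the clusters described below and the one with most members, Top2a was at 31.4 CPM in members and 24.0 CPM in the others (1.31, 0.779 to 2.07). Of 8 mesenchymal regulators, Snai2 (0.259, 0.134 to 0.452) and Twist2 (0.256, 0.172 to 0.369) were at least 2-fold lower and Vim was near equal (0.921, 0.871 to 0.974). Within tag 3 Snai2 was at 0.218 (0.0706 to 0.512), but Twist2 was at 0.572 (0.331 to 0.921), not past 2-fold. Within tag 1 they were at 0.376 (0.0775 to 1.10) and 0.417 (0.153 to 0.909), on 3 and 6 UMIs. Cdh2, the cadherin of mesenchymal and mesothelial cells, was at 600 and 418 CPM (1.44, 1.33 to 1.55). None of 8 interferon response genes passed 2-fold in either direction, and their summed ratio was 0.804 (0.746 to 0.865).

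The members were then split by whether they had a Upk1b UMI, a split chosen after the values were seen. Of the 72 with one, 22 had a single Upk1b UMI, 21 had 2 and 29 had 3 or more. In these 72 cells the mesothelial list stood at 329 CPM (286 to 376), in the 58 members without Upk1b at 56.5 CPM (36.6 to 83.4), and in the other cells at 20.3 CPM. Of the members' 57 Msln UMIs, 56 lay in cells with Upk1b, as did all 12 of Upk3b, all 5 of Krt8, all 9 of Bnc1 and 38 of 41 of Wt1. Other genes of the list did not divide in this way, with 18 Krt19 UMIs in members with Upk1b and 9 in those without (CPM ratio 1.39, 0.594 to 3.52), 7 and 4 of Nkain4 (1.22, 0.310 to 5.67) and 0 and 5 of Rspo1. Smpd3, neutral sphingomyelinase 2, had 53 UMIs, all in members with Upk1b (26.0-fold above the other cells, 19.1 to 34.8), and Atp1b1, a subunit of the sodium pump, had 91 of 96.

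Mesothelial genes were also counted cell by cell. At least 3 of the 17 were found in 14 of 72 members with Upk1b (19.4%, 11.1 to 30.5), in 0 of 58 without (0 to 6.16%), and in 18 of the 12915 other cells (0.139%, 0.0826 to 0.220). After the same thinning to 5000 UMIs, the shares were 16.1% of members with Upk1b and 0.0190% of the other cells. Members with more Upk1b held more of them: 2 or more mesothelial genes were found in 16 of the 29 members with 3 or more Upk1b UMIs, in 4 of 21 with 2 and in 1 of 22 with 1. The cell with the most Upk1b, 30 UMIs, had 1 Msln and 5 Wt1 UMIs and 6 of the mesothelial genes, and the next, with 27, had 4 Msln, 2 Upk3b and 2 Wt1 UMIs and 7 of the genes. They had 12876 and 18517 UMIs in all, against a median of 7635.5 over the members. The counts by Upk1b level were not thinned, and counts of any gene rise with a cell's depth. The part of depth in this relation was not tested.

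**Figure D2:**
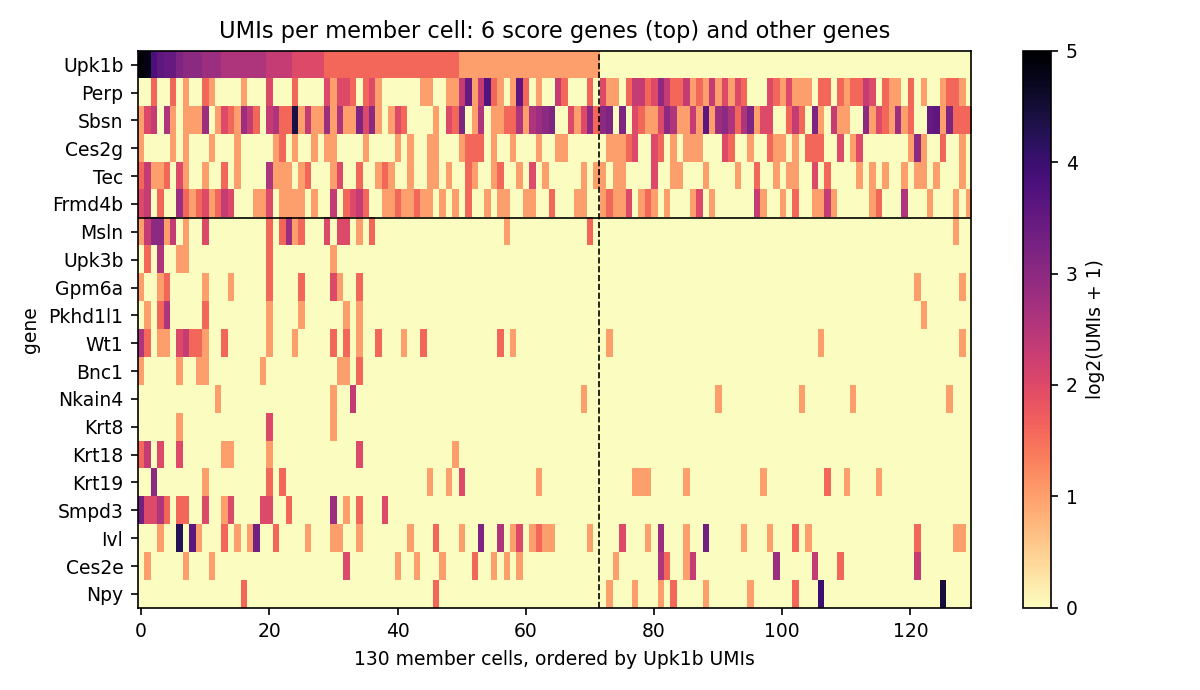
UMIs of 20 genes (rows) in each of the 130 members (columns, ordered by Upk1b UMIs), coloured by log2(UMIs + 1), with the 6 score genes above the solid line and the 72 members with Upk1b left of the dashed line. Msln, Upk3b, Wt1, Krt8 and Smpd3 lie nearly all at the left, among cells with most Upk1b, while Perp, Sbsn and Ces2g run across the whole plot.

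The 58 members without Upk1b had to reach the score through the other 5 genes, so the levels of those genes in them are fixed by the choice. Of the genes outside the score, Ces2e had 29 UMIs in 9 of these cells (65.5 CPM, 27.6-fold above the other cells, 18.1 to 40.5) and 14 UMIs in members with Upk1b. Npy, neuropeptide Y, had 45 UMIs in 9 cells, with 21 of them in 1 cell and 15 in another, and 4 in members with Upk1b. All 22 UMIs of Ptcra were in 1 cell. Intervals overlapped for the stratified epithelial list, at 165 CPM (135 to 200) with Upk1b and 160 CPM (125 to 202) without, and for the junction list, at 271 and 262 CPM. Interferon response genes were at 941 CPM (867 to 1019) with Upk1b and 271 CPM (225 to 324) without. The list stood at 2899 CPM in the other cells of hashtag 1 and 337 CPM in those of hashtag 3, 15 of the 72 members with Upk1b and 8 of the 58 without had hashtag 1, and the part of the hashtags in this difference was not tested.

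**Figure D3:**
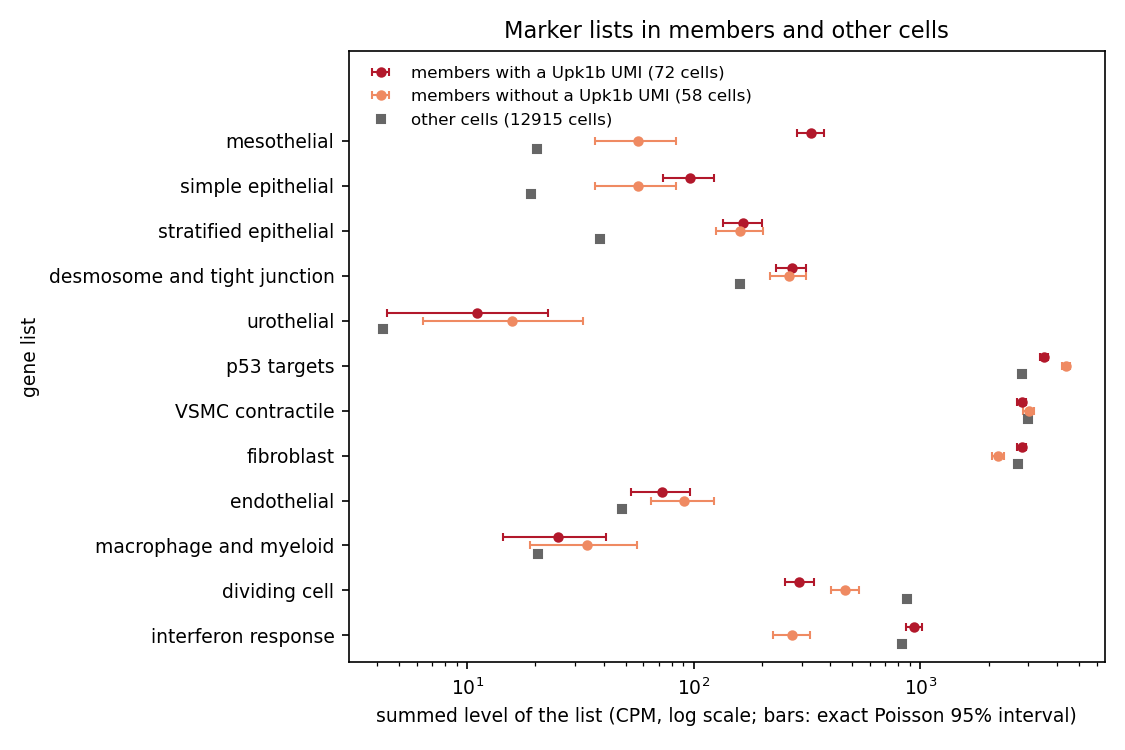
Summed level of 12 gene lists (CPM, log axis) in members with a Upk1b UMI, members without one and other cells, with exact Poisson 95% intervals for the members. The mesothelial list shows the widest gap between members with and without Upk1b (329 and 56.5 CPM), while the stratified epithelial and junction lists overlap and lie above the other cells in both.

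Across the whole set, genes were ranked by ratio among those with 200 UMIs over all cells and at least 30 in members. The 20 highest included the 6 score genes, Ces2e, Smpd3 (15.3, 11.3 to 20.5) and Wt1. Npy (10.1, 7.39 to 13.6), Ankrd36 and M1ap were also among them, with 49, 32 and 37 UMIs in members. Some of them rested on few cells, since 21 of the 49 Npy UMIs were in 1 cell, and the 32 of Ankrd36 were in 5 cells. Others were spread more widely: Olr1, the lectin-like receptor for oxidised lipoprotein, had 199 UMIs in 44 members (185 and 28.5 CPM), Cystm1 had 169 UMIs (157 and 24.6 CPM) and Mt4, a metallothionein of stratified epithelium, had 47 UMIs in 18 members (43.6 and 6.74 CPM).

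The 15 genes with the lowest ratios included secreted factors. Stc1, stanniocalcin 1, was at 4.64 CPM in members and 41.3 CPM in the other cells, Csf3, the granulocyte colony-stimulating factor, at 4.64 and 33.8 CPM, and Hgf, hepatocyte growth factor, at 5.56 and 38.3 CPM. Crabp1, which binds retinoic acid, was at 8.35 and 70.1 CPM, and Mecom, a transcription factor, at 26.0 and 192 CPM. Lcn2, lipocalin 2, from the list of the Clu secretory state, was not among the 15, at 239 and 816 CPM (0.293, 0.259 to 0.331). Its ratio was 0.571 within tag 3 and 0.626 within tag 1, not past 2-fold. Of the other genes of that list, Csf3 and Hgf were also at least 2-fold lower, while Clu (69.6 CPM in members and 116 CPM in the other cells) and C3 (ratio 1.46) were not past 2-fold. Of the Slpi high state, Lmo7 (0.169), Dio2 (0.176) and Il1rl1 (0.465) were lower over all cells but above 1 within tag 1 (1.55, 1.12 and 2.18), and Slpi was higher (2.07, but 0.807 within tag 3).

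Members were unevenly spread over the hashtags. They made up 57 of 1468 cells of tag 3 (3.88%, exact Clopper-Pearson interval 2.95 to 5.00), 23 of 3117 of tag 1 (0.738%, 0.468 to 1.11), 4 of 573 of tag 2 (0.698%, 0.191 to 1.78) and 1 of 1512 of tag 4 (0.0661%, 0.00167 to 0.368). A further 10 carried more than 1 tag and 35 had no tag above background, of 1068 and 5307 such cells. The share was highest in tag 3 and lowest in tag 4, and the interval of tag 3 lay above those of the other tags. The interval of tag 4 lay below that of tag 1 and overlapped that of tag 2, and those of tags 1 and 2 overlapped. Hashtags separated unevenly. Median UMIs of a tag in its own cells and in untagged cells were 370 and 10 (tag 1), 70 and 15 (tag 2), 116 and 31 (tag 3), and 67 and 20 (tag 4). The median member held 60.5 UMIs of tag 3 against 33 in the other cells.

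**Figure D4:**
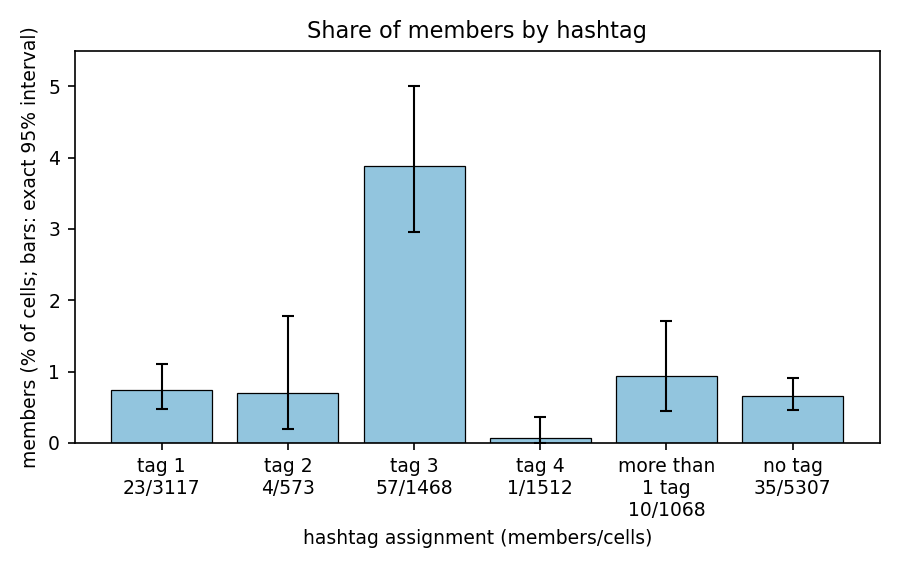
Members as a percentage of the cells of each hashtag assignment (bars, with exact 95% intervals, and members/cells below each bar). Tag 3 stands at 3.88% and tag 4 at 0.0661%, with the other assignments between.

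Outside the members, all 6 score genes had their highest level in tag 3. The score used these genes and had no step at the threshold, so these levels are a description and not separate evidence. In cells that were not members, Upk1b was at 8.05 CPM in tag 3 (6.63 to 9.68), 2.25 in tag 1, 2.02 in tag 2 and 1.70 in tag 4, and Perp was at 23.7 CPM in tag 3 against 8.14, 14.0 and 11.01 CPM. Sbsn was at 50.3 CPM in tag 3, 36.7 in tag 1, 12.9 in tag 2 and 10.8 in tag 4. Ces2g was at 12.3 CPM in tag 3 against 8.05, 3.41 and 4.72 CPM in tags 1, 2 and 4, and Frmd4b at 14.5 CPM against 4.83, 4.65 and 4.78 CPM. Tec, at 10.54 CPM in tag 3 (8.91 to 12.4), overlapped tag 2 at 9.31 CPM (7.10 to 12.0) and lay above tags 1 and 4 at 5.76 and 7.49 CPM, with an interval overlapping that of tag 4. The levels of Upk1b, Perp, Sbsn and Frmd4b in tag 3 lay above the intervals of the free RNA level given before. For Upk1b the interval in tag 3 overlapped that of free RNA. Ces2g and Tec in tag 3 lay within the free RNA intervals. Cells with 3 or more mesothelial genes followed another order, with 8 of tag 1 (0.257%), 3 of tag 2 (0.524%), 7 of tag 3 (0.477%) and 2 of tag 4 (0.132%), and all 4 intervals overlapped. Of the 14 members with 3 or more, 6 had tag 1, 2 had tag 2, 4 had tag 3 and 2 had no tag.

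Because members were concentrated in tag 3, ratios were read again within tags, an alternative added after the data were seen. Within tag 3 the members' 6 genes were 7.53-fold above the other cells of the tag (6.78 to 8.34) and the mesothelial list 7.26-fold (5.45 to 9.57), and within tag 1 they were 17.8-fold (15.3 to 20.5) and 22.2-fold (17.6 to 27.9). Cluster 12, described below, held 8 of the 23 members of tag 1 and 4 of the 57 of tag 3. Its part in these ratios was not tested. The simple epithelial list was 3.44-fold higher within tag 3 (2.21 to 5.15) and 9.61-fold within tag 1 (6.53 to 13.7). For the stratified epithelial list these ratios were 2.93 (2.26 to 3.74) and 5.52 (3.47 to 8.36), and the 4 members of tag 2 held 0 of its UMIs. Msln had 21 UMIs in the 57 members of tag 3 and 12 in the tag's other 1411 cells (46.8, 22.0 to 104), and 18 in the 23 members of tag 1 and 10 in its other 3094 cells. The 20 leading genes include the 6 score genes and were picked for their ratio in these same members, so their direction within tags is a description. Within tag 3, 19 were at least 2-fold higher and Sugct was at 1.30, and within tag 1, 18 were, while Npy had no UMI in members and M1ap had 1. Of the 15 lower genes, picked in the same way, 8 were at least 2-fold lower within tag 3, and within tag 1 Csf3 (1.82), Lmo7 (1.55) and Dio2 (1.12) were above 1, on 4, 5 and 4 UMIs. Over all genes with 200 UMIs in the cells of the tag, 141 of 7441 were at least 2-fold higher within tag 3 (1.89%) and 215 at least 2-fold lower (2.89%). Within tag 1, with 23 members, 547 of 8883 were higher (6.16%) and 1385 lower (15.6%). The number of members and of genes past the minimum differs between the tags, so these counts are not compared.

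Cells were also clustered without the 6 score genes, by 30 principal components of 2000 variable genes. Members were found in 12 of 14 clusters, but 73 of 130 lay in cluster 3 (1847 cells, 3.95% members, 3.11 to 4.94) and 20 in cluster 12 (147 cells, 13.6%, 8.51 to 20.2). Cluster 3 was led by Ces2e, Npy, Wnt2, Sema7a and Lce1g, and 840 of its cells had tag 3 against 73 with tag 1. Mt4 and Sprr1a, named above, ranked 6 and 9 among its leading genes. Cluster 12 was led by Upk1b, Wt1, Spon2, Trf, Frmd4b, Lpl and Smpd3 and held cells of all 4 tags, 12, 13, 8 and 20 in order, while 90 of its 147 cells had no tag and 4 more than 1. All 20 of its members had a Upk1b UMI, while cluster 3 held 34 members with and 39 without. Leading genes are listed to describe the clusters and are not results.

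**Figure D5:**
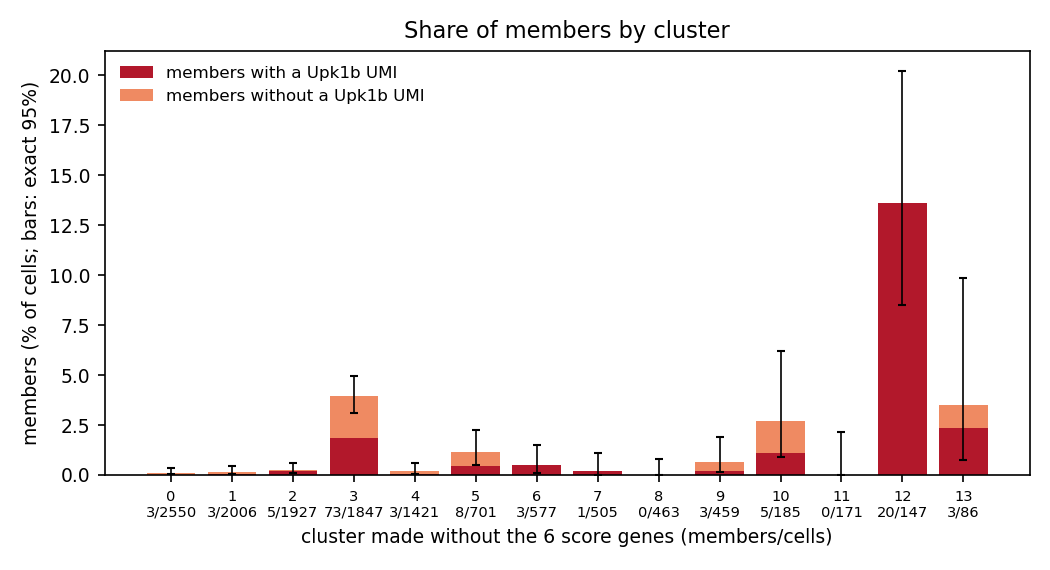
Members as a percentage of the cells of each of 14 clusters made without the score genes (bars, split by Upk1b, with exact 95% intervals and members/cells below). Cluster 12 has 13.6% members, all with Upk1b, cluster 3 has 3.95% and holds most members by number.

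Within cluster 12 some mesothelial transcripts lay mostly in its members and others did not. Members held 40 of the cluster's 42 Msln UMIs, all 12 of Upk3b, all 5 of Krt8, all 13 of Pkhd1l1 and 14 of 17 of Gpm6a, but 15 of 33 of Krt18, 5 of 12 of Bnc1, 2 of 9 of Lrrn4, 2 of 7 of Muc16 and 1 of 9 of Nkain4. Wt1 had 29 UMIs in the 20 members and 40 in the cluster's other 127 cells (161 and 32.9 CPM), and Trf, transferrin, was at 433 and 294 CPM (1.47, 1.14 to 1.89). Tagln was at 250 CPM in these members and 868 CPM in the rest of the cluster (0.288). Within cluster 3, the 73 members had 13 Msln UMIs and the other 1774 cells also 13 (26.6, 11.4 to 62.4). Wt1 (6 UMIs, 5.51, 1.87 to 13.5) and Nkain4 (8 UMIs, 3.95, 1.62 to 8.34) were also higher in these members. Gpm6a had 2 UMIs in each group (26.6, 1.93 to 367). Krt19 was at 9.91 and 8.31 CPM (1.19, 0.430 to 2.66), and Upk3b, Krt8, Krt18 and Bnc1 had no UMI in the members. Outside the list, Ces2e (6.20, 4.14 to 9.06), Npy (4.91, 3.52 to 6.72) and Olr1 (2.47, 1.98 to 3.04) were higher too, each by less than over all cells. Without cluster 12, the mesothelial ratio over all cells was 4.47 in place of 10.7, and the summed ratio of the 6 score genes was 14.6.

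Members lay near each other in this space, though not in 1 group. Of the 20 nearest neighbours of a member, 16.8% were members, against 0.453% of the neighbours of other cells, and 44 members had no member among their neighbours. The share was 50.5% for the members in cluster 12, 14.5% for those in cluster 3, 21.9% for all members with Upk1b and 10.4% for those without.

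Depth was similar in members and the other cells, with medians of 7635.5 and 7918 UMIs and 2881.5 and 2884 genes per cell. The range was 2346 to 21785 UMIs in members and 2218 to 50748 in the other cells. The median share of mitochondrial UMIs was 0.438% in members and 1.34% in the other cells, and within tag 3 it was 0.107% and 0.219%, within tag 1 1.10% and 1.07%. Scrublet called 12 of 130 members doublets (9.23%, 4.86 to 15.6) and 23.6% of the other cells (22.9 to 24.3). Xist, transcribed from the inactive X chromosome of females, was at 130 CPM in members and 403 CPM in the other cells (0.323, 0.271 to 0.381, but 1.07 within tag 1), and the Y-linked Ddx3y at 63.1 and 40.5 CPM (1.56, 1.21 to 1.98). UMIs of Y-linked genes without Xist were found in 65 members and Xist without them in 8, against 4500 and 4325 of the other cells. Tags differed in this too, with 829 cells of tag 3 with Y-linked UMIs alone and 80 with Xist alone against 209 and 1011 of tag 4. Within tag 3, 32 members had Y-linked UMIs alone and 0 had Xist alone. Their part in the results was not tested.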

How the data were processed

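Single-cell RNA-seq of 1 hashed droplet library was used. The authors deposited raw UMI counts of 32285 genes and 4 hashtags over 2472397 barcodes, made with Cell Ranger 4 per the submitters' processing notes. Genome build and aligner were not given in the sources used here. Cells had at least 2218 gene UMIs and 200 genes (13045 cells, 115033686 UMIs). The score is given in the report. The members and gene lists were chosen with earlier results of these data known. Summed UMIs over 1000000 (CPM) have exact Poisson intervals, with exact binomial intervals for ratios and Clopper-Pearson intervals for shares. Genes named were the score genes, list genes, sex-linked genes, and the 20 highest and 15 lowest ratios among genes with 200 UMIs and 30 observed or expected in members. Genes of members with and without Upk1b were named by the same ratio with at least 15 UMIs, and cluster genes as leaders, after values were seen. "At least 2-fold" is a size, not a test. Hashtags were assigned with HTODemux (quantile 0.99) and clusters made in Seurat 5.3.0 and R 4.3.3 (20 neighbours, resolution 0.8). Scrublet in scanpy 1.11.5 called 3058 cells (23.4%) doublets at an expected rate of 0.1. They were kept. No barcode name occurred more than once (0 duplicates). The ratio script was tested on simulated counts. Near-empty barcodes numbered 1299325 (2096028 UMIs). Some genes of the lists are not reported here.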

Additional observations from a re-analysis of the deposited data

How the results depend on the processing

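Of the 6 summed score genes the ratio (16.1) was 13.9 with cells thinned to 5000 UMIs, 12.4 on unscaled UMIs, 19.6 and 13.4 for the top 0.5% and 2%, 17.7 without doublet calls, 10.3 on UMIs left out, 7.53 in tag 3, 17.8 in tag 1 and 14.6 without cluster 12. The mesothelial ratio (10.7) was 7.82 on unscaled UMIs, 16.0 and 6.59 for the top 0.5% and 2%, 12.7 without doublet calls, 8.43 over list genes with 50 UMIs, 7.26 and 22.2 in tags 3 and 1, and 4.47 without cluster 12. Genes at least 2-fold higher and lower (724 and 932) numbered 456 and 545 for the top 2%, 1567 and 1833 at a minimum of 50 UMIs, 212 and 359 at 1000, 1856 and 1741 at 1.5-fold, 235 and 404 at 3-fold, and 141 and 215 in tag 3. In tag 1, 547 were higher and 1385 lower. For the top 0.5%, 924 were higher and 1615 lower. Median UMIs of members were 9325 thinned, 11301.5 unscaled and 9187 among cells of at least 5000 UMIs. The tag 3 share (3.88%) was 1.57% and 6.68% for the top 0.5% and 2%. The share of members among members' neighbours (16.8%) was 13.8% thinned, 13.6% unscaled, 15.2% for the top 2%, 15.3% among cells of at least 5000 UMIs, 21.1% without doublet calls, 12.3% with 50 neighbours and 10.5% with 15 components. The median left-out ratio (6.48) was 4.91 thinned. The causes were not tested.

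Gene and list ratios past 2-fold were compared where at least 10 UMIs were found or expected in the members of the alternative. This minimum was set after the data were seen. Of these ratios 3 changed side: Il1rl1 (0.465) was 2.18 and Xist 1.07 in tag 1, and Slpi (2.07) was 0.807 in tag 3. Csf3, Lmo7 and Dio2, above 1 in tag 1, fell short of the minimum there. Of all 1564 gene, list and tag values under alternatives, 1112 stayed within the counting interval. Members shared 76 cells with those of the thinned score and 89 with those of the unscaled one. No paired analysis was possible because 1 library holds all cells, and no replicate could be left out. In members, 7 of 17 mesothelial genes had 1 to 10 UMIs and 2 had none, and tags 2 and 4 hold 4 and 1 members.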
